A study of Mus musculus with 6 samples.

Results

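The data described here are the ribosome-bound RNA levels of 10 genes from families placed in dopamine D2 receptor signalling toward GSK3β. Whether each of the 10 carries this signal in these cells was not tested. The 10 genes are the β-arrestins Arrb1 and Arrb2, the receptor kinases Grk5 and Grk6, and 6 genes for subunits of protein phosphatase 2A (PP2A). These 6 are Ppp2ca, Ppp2cb, Ppp2r1a, Ppp2r1b, Ppp2r2a and Ppp2r2c. The 10 genes were chosen by name, for their place in this pathway, out of 47729 genes, and they account for 52 of the 115220 transcripts listed. RNA was collected from the medial prefrontal cortex (mPFC) of adult male D2Cre/LSL-Flag-Cas9/RiboTag mice on a C57BL/6 background, 3 weeks after injection of AAV GFP (Ctrl, 3 libraries) or AAV Gsk3 sgRNA/GFP, which encodes a guide against Gsk3b (Gsk3sKO in mPFC D2, 3 libraries). Both groups therefore carried the D2Cre transgene, with Cas9 and a tagged ribosomal protein in cells in which Cre was or had been active. The virus is the only stated difference. The Cre is driven by Drd2 regulatory sequence in a bacterial artificial chromosome. The cells sampled are thus those in which this transgene is or has been active. The sources used here do not say whether a library is 1 mouse or a pool, so p-values measure the spread between libraries, which may be partly technical.

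G protein-coupled receptor kinases phosphorylate an activated receptor, and β-arrestins bind the phosphorylated receptor, uncouple it from its G protein and act as scaffolds. At the D2 receptor, β-arrestin 2 holds Akt and PP2A in 1 complex. PP2A removes activating phosphates from Akt, and Akt otherwise keeps GSK3 inactive by phosphorylating it. PP2A itself is a trimer of a catalytic subunit (Ppp2ca or Ppp2cb), a scaffold subunit (Ppp2r1a or Ppp2r1b) and a regulatory B subunit that selects substrates, of which the B55 family includes Ppp2r2a and Ppp2r2c. Both Grk5 and Grk6 belong to the kinases that are held at the membrane without Gβγ.

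Levels are in FPKM, a measure of fragments corrected for the length of a transcript and the size of a library, so that genes can be compared, and a gene total is the sum over the transcripts of a gene. The spacing of low values corresponded to 23.5 to 45.1 M reads per library. Gsk3b was at 35.6, 53.8 and 56.5 FPKM in Ctrl 1 to 3 and at 36.9, 37.0 and 33.6 FPKM in Gsk3sKO 1 to 3, so that Ctrl 1 lay within the Gsk3sKO range. The log2 difference of Gsk3b was -0.40 (SE 0.19, adjusted p = 0.773) and did not pass an unadjusted p under 0.05, whereas without Ctrl 1 it was -0.61 and passed. A guide-directed cut leaves small insertions and deletions, so RNA level is only an indirect check of the label. From staining of mPFC sections of D2Cre/LSL-Flag-Cas9 mice, the authors report that most neurons with both Cas9 and the guide virus lacked GSK3β protein. The mice of these libraries were not stained in the sources used here. Drd2 was at 1.58, 6.02 and 14.1 FPKM in Ctrl, against 8.32, 5.96 and 7.28 FPKM in Gsk3sKO, with Ctrl 1 below and Ctrl 3 above the other libraries. The summed levels of 4 general neuron markers were between 1725 and 1936 FPKM, and those of 5 oligodendrocyte, 5 astrocyte, 5 microglia and 5 endothelial markers reached at most 169, 61.4, 17.6 and 59.2 FPKM. No marker on these lists was at 0 in all libraries. The oligodendrocyte genes Mag and Mog, the microglial gene C1qa and the excitatory neuron gene Tbr1 passed an unadjusted p under 0.05, lower in Gsk3sKO. These were 2 of 5 oligodendrocyte, 1 of 4 microglia and 1 of 5 excitatory neuron markers tested. No marker of the other lists passed, and of all gene totals tested 5.20% passed as lower. Mog was at 1.81, 0 and 0 FPKM in Gsk3sKO. Its mean reached the 1 FPKM needed for testing only through Ctrl, so its call is given as a description. The oligodendrocyte sum was 108 to 169 FPKM in Ctrl and 123 to 155 FPKM in Gsk3sKO, the microglia sum 12.1 to 17.6 and 10.4 to 14.9 FPKM, and the sum of 5 excitatory neuron markers 881 to 999 and 840 to 1046 FPKM. The part of these cells in the values below was not tested.

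All 10 genes were detected in every library, and their levels spanned from about 1 to 150 FPKM. The B55 gene Ppp2r2c (mean 136 FPKM) and the scaffold gene Ppp2r1a (122 FPKM) stood highest, at the 98.6 and 98.4 percentiles of all gene totals above 0. The catalytic genes Ppp2ca (73.9 FPKM) and Ppp2cb (57.3 FPKM) came next, and then Ppp2r2a (33.1 FPKM). The arrestins and kinases were lower, with Arrb1 at 16.3, Grk6 at 12.9, Arrb2 at 9.15 and Grk5 at 5.85 FPKM, and the second scaffold gene Ppp2r1b was lowest at 1.36 FPKM. Ppp2r2c exceeded Ppp2r1a in 5 of 6 libraries, Arrb1 exceeded Grk6 in 4 of 6 and Grk6 exceeded Arrb2 in 5 of 6. The other neighbouring pairs in this order kept it in 6 of 6 libraries. Differences between genes were not tested. The PP2A genes were thus listed at higher levels than the receptor-proximal genes, with Ppp2r1b as the exception.

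**Figure D1:**
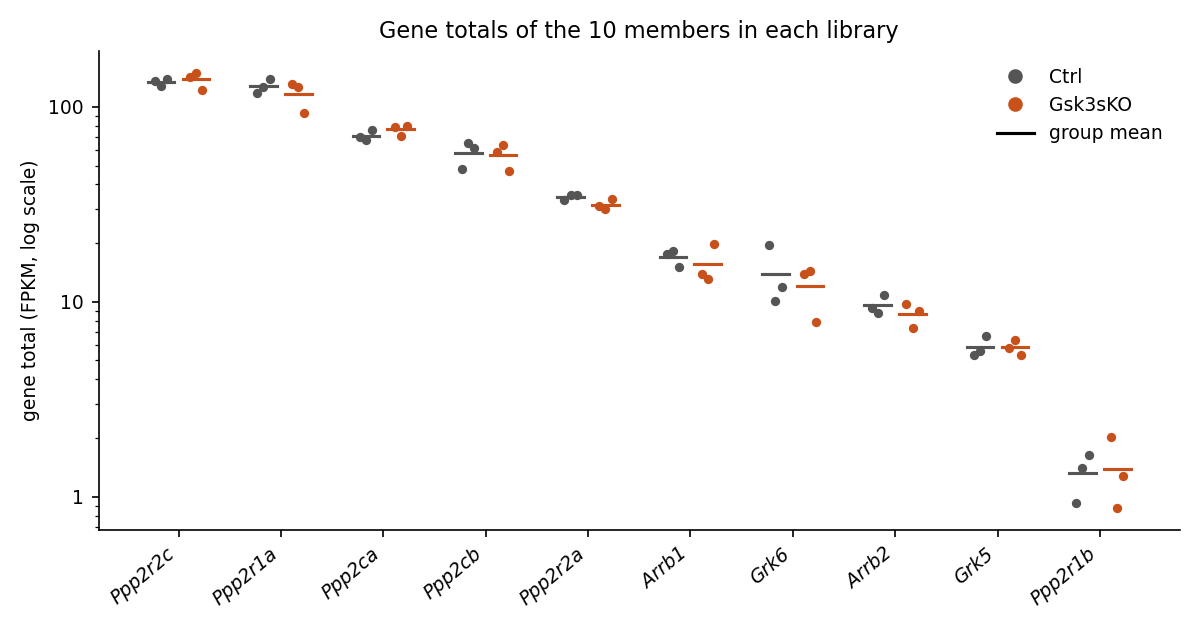
Gene totals (FPKM, log axis) of the 10 genes, ordered by mean level, with 1 point per library and a bar at the mean of each group of 3. Ctrl and Gsk3sKO points overlap for every gene, and the means run from 136 FPKM for Ppp2r2c to 1.36 FPKM for Ppp2r1b.

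To ask whether these genes differed between groups, gene totals were compared with limma on log2(FPKM + 1). They were called at an unadjusted p under 0.05. The control virus is given without a guide, so cutting by Cas9 and loss of GSK3β differ between the groups together. A separate effect of cutting was not tested. None of the 10 gene totals was called in either direction. In bulk RNA of this kind, fewer cells of a type and less RNA per cell cannot be told apart. Among all 12874 gene totals tested, 6.56% were called, 5.20% lower and 1.36% higher in Gsk3sKO. With scaling by the median ratio of gene totals, 62.1% of calls were lower in place of 79.3%. For none of the 10 genes were the groups of 3 libraries apart, whereas all Gsk3sKO libraries lay below all Ctrl libraries for 8.30% of all gene totals and above them for 3.71%. The median log2 difference of the 10 genes was -0.09, with a range of -0.18 to 0.11, and that of all gene totals was -0.06. Of the 10, 6 (60.0%) lay below 0, as did 58.9% of all gene totals. With 3 libraries per group, the exact permutation test cannot give a p below 0.1.

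How closely these libraries bounded the fold differed between genes. The 95% interval of the fold, on the FPKM + 1 scale, was narrowest for the abundant genes. It ran from 0.884 to 1.31 for Ppp2ca, from 0.835 to 1.26 for Ppp2r2c, from 0.742 to 1.12 for Ppp2r2a and from 0.700 to 1.17 for Ppp2r1a. It was widest for Ppp2r1b, from 0.609 to 1.70, and for Grk6, from 0.548 to 1.42. Folds within an interval are compatible with the values of that gene, and the intervals do not give the smallest change that would have been called. At the low level of Ppp2r1b the added 1 FPKM makes the interval understate the range of its fold.

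**Figure D2:**
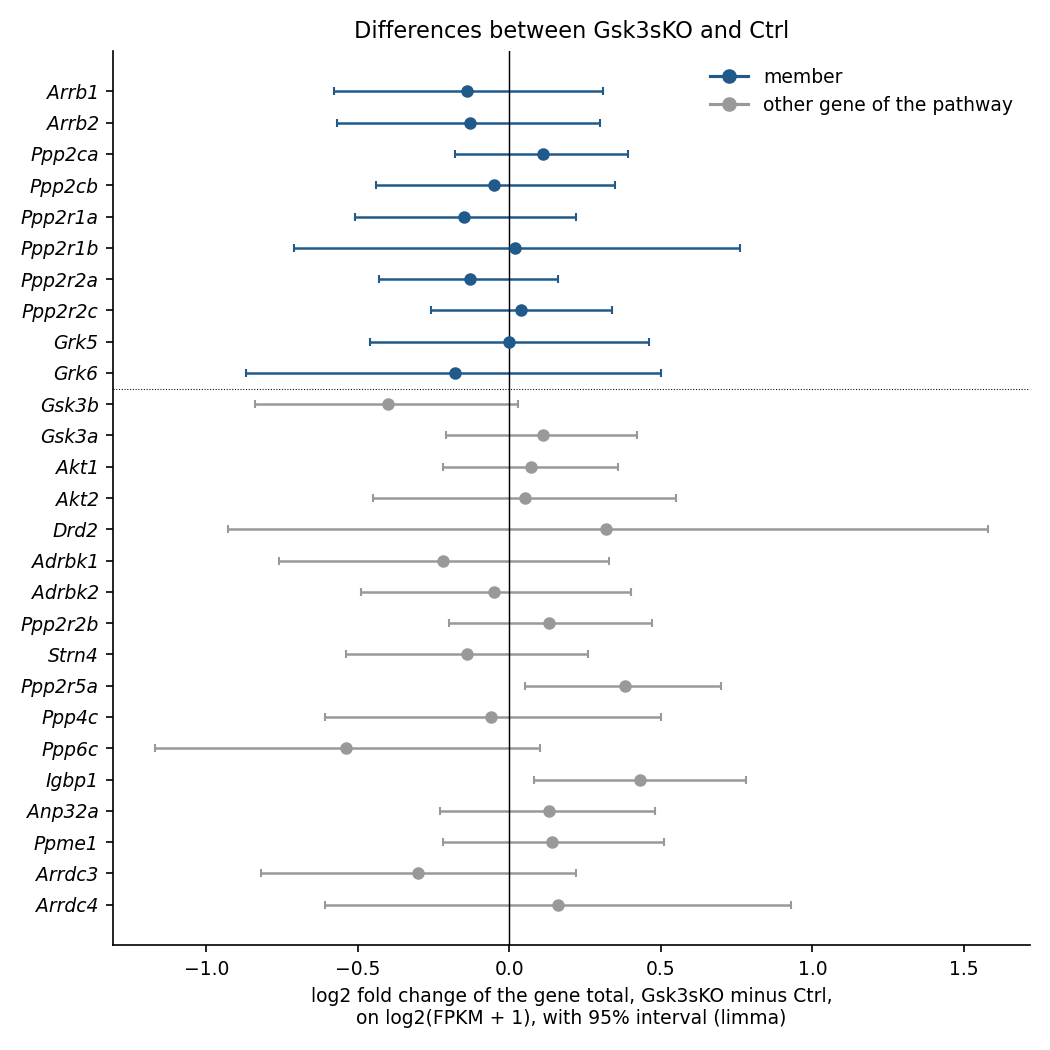
Log2 difference of the gene total between Gsk3sKO and Ctrl on log2(FPKM + 1), with the 95% interval from limma, for the 10 genes (blue) and other genes of the pathway (grey). Every blue interval spans 0, and of the grey intervals those of Ppp2r5a and Igbp1 lie above 0.

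Arrb1, which encodes β-arrestin 1, lies on the plus strand at chr7:99535466-99606771 (GRCm38). Its total was 17.5, 18.3 and 15.1 FPKM in Ctrl and 13.8, 13.1 and 19.8 FPKM in Gsk3sKO. The highest and the lowest value were both Gsk3sKO libraries, and the log2 difference was -0.14 (SE 0.20, adjusted p = 0.921). Arrb2, which encodes β-arrestin 2, the arrestin of the Akt and PP2A complex, lies on the plus strand at chr11:70432635-70440828. Its total was 9.34, 8.76 and 10.8 FPKM in Ctrl and 9.69, 7.37 and 9.01 FPKM in Gsk3sKO. Here the groups overlapped as well, and the log2 difference was -0.13 (SE 0.19, adjusted p = 0.920). With protein-coding transcripts only it was -0.49, also not called. Arrb1 was listed above Arrb2 in every library, with a ratio of 1.88, 2.09 and 1.40 in Ctrl and of 1.42, 1.78 and 2.20 in Gsk3sKO.

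The arrestins vary in splicing as well as in level, and for each an exon that differs between its main transcripts is shown. The coding sequences of Arrb1 and Arrb2 were identical at 72.9% of aligned bases, with a longest identical run of 18 bases, and neither main transcript shared a stretch of 50 bases with another gene. Arrb1-202 has a 24-base coding exon, exon 13 of 16 at chr7:99597036-99597059, that Arrb1-201 lacks. Arrb2-205 has 33 more coding bases than Arrb2-204 at the start of exon 14 of 15, chr11:70439818-70439905. The transcripts of each pair also start and end at different places. Arrb1-202 is 7132 bases long and Arrb1-201 is 3715, whereas Arrb2-205 is 1777 bases long and Arrb2-204 is 1848. Sequences are from the GENCODE M21 transcripts, 5′ to 3′ on the plus strand, and capitals mark the bases present in the first transcript of each pair and absent from the second.
Arrb1-202 exon 13: CCTCTTGGGAGACCTTGCATCCAG
Arrb2-205 exon 14: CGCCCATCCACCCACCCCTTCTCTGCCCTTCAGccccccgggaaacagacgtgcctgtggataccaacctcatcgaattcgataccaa

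Arrb1 was listed almost wholly as Arrb1-202, the longer form. Whether reads over the short exon or over the longer ends gave this share was not tested. Arrb1-202 (ENSMUST00000098266) made up 90.3, 89.4 and 92.9% of the Arrb1 total in Ctrl and 93.3, 81.3 and 98.8% in Gsk3sKO. Arrb1-201 (ENSMUST00000032995), without that exon, held 0, 0 and 4.96% in Ctrl and 3.63, 13.9 and 0% in Gsk3sKO. Arrb2 had no such stable form. Arrb2-204 (ENSMUST00000102564) held 94.8, 35.0 and 85.4% of the Arrb2 total in Ctrl and 39.7, 43.5 and 0% in Gsk3sKO, whereas Arrb2-205 (ENSMUST00000108568), with the 33 extra bases, held 3.71, 35.1 and 0% in Ctrl and 51.8, 0 and 86.8% in Gsk3sKO. The libraries of each group disagreed with each other: Arrb2-205 was listed at 0 in Ctrl 3 and in Gsk3sKO 2. In FPKM, Arrb2-204 was at 8.85, 3.06 and 9.18 in Ctrl, against 3.85, 3.21 and 0 in Gsk3sKO (log2 difference -1.44, SE 0.72, adjusted p = 0.844). Without Gsk3sKO 3 this difference was -0.71. Arrb2-205 was at 0.346, 3.07 and 0 in Ctrl, against 5.01, 0 and 7.82 in Gsk3sKO (log2 difference 1.09, SE 0.97, adjusted p = 0.890), and without Gsk3sKO 2 this transcript passed the threshold. Transcripts not annotated as protein-coding held between 1.53 and 56.5% of the Arrb2 total, the most in Gsk3sKO 2, where the retained-intron transcript Arrb2-210 made up 43.6%. The Arrb2 totals rested on 287 to 769 reads per library, of which only those over the differing bases tell these transcripts apart, and how far the assignment of reads moved these shares was not tested.

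**Figure D3:**
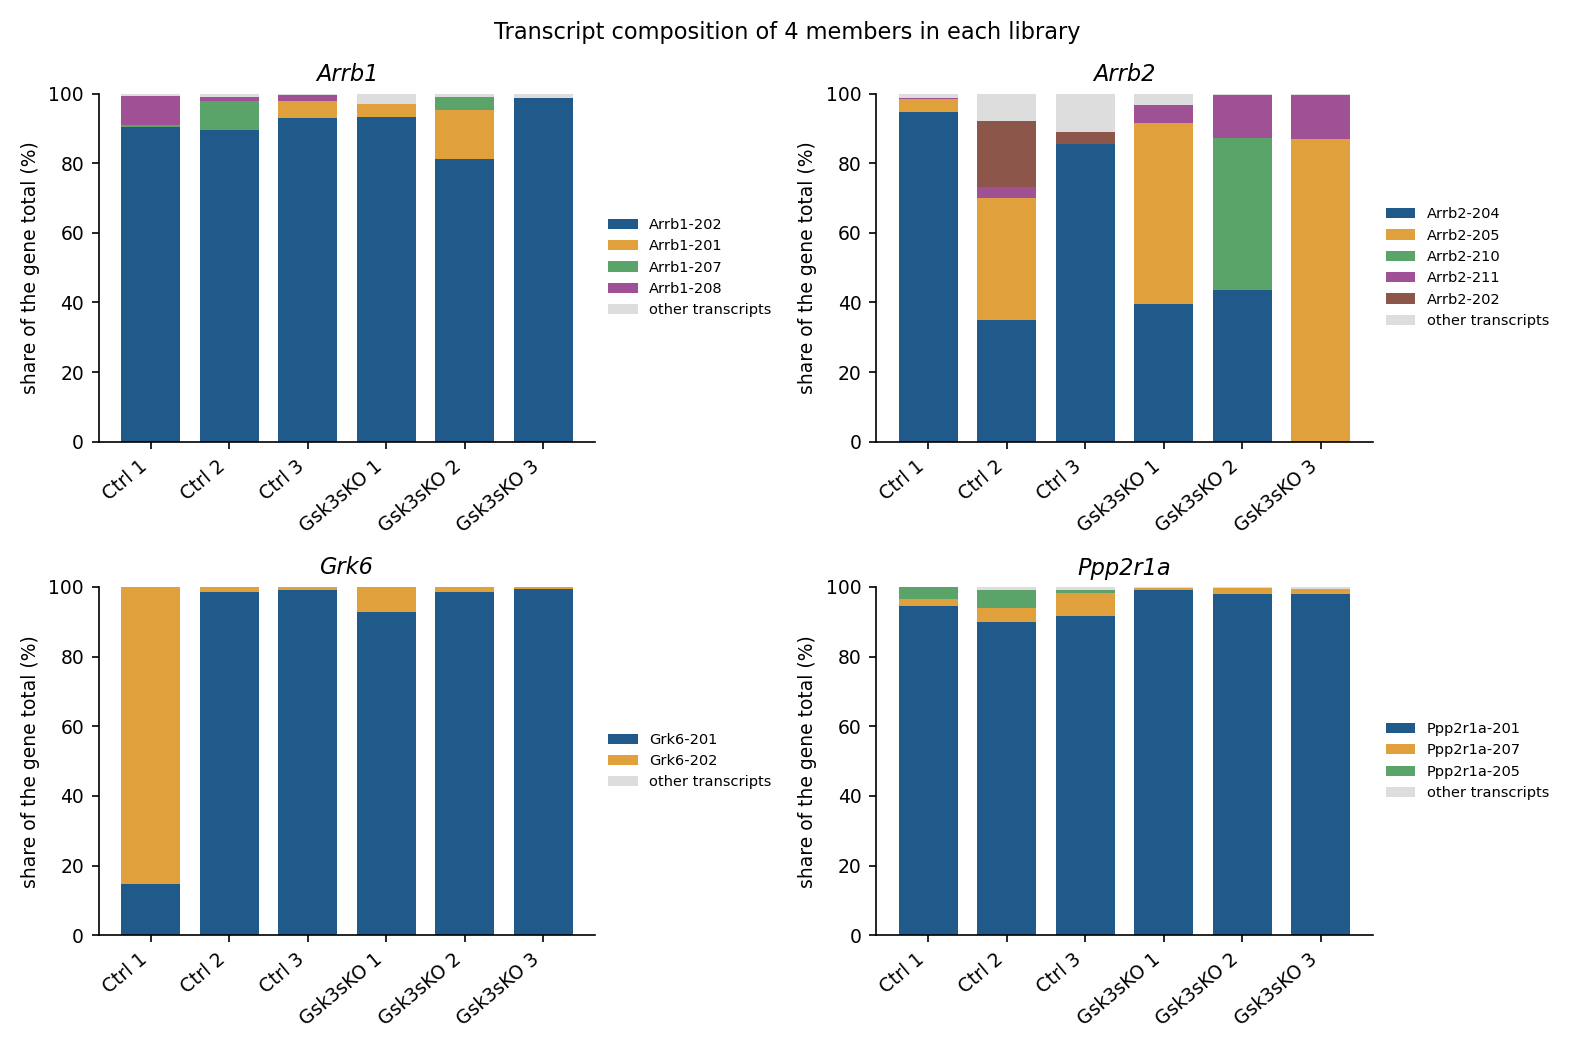
Share of the gene total (%) held by each transcript of Arrb1, Arrb2, Grk6 and Ppp2r1a in each of the 6 libraries, as stacked bars. Arrb1-202 holds 81.3 to 98.8% of Arrb1, Arrb2 is divided differently in nearly every library, Grk6-202 leads in Ctrl 1 alone at 85.2%, and Ppp2r1a-205 is seen in the Ctrl libraries only.

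The PP2A catalytic subunits are encoded by Ppp2ca, at chr11:52098681-52127778 on the plus strand, and Ppp2cb, at chr8:33599625-33619441 on the plus strand. Their coding sequences, each of 927 bases, were the most alike of the 5 pairs of relatives here, at 81.7% identity, with a longest identical run of 25 bases. Ppp2ca was at 69.7, 67.9 and 75.7 FPKM in Ctrl, against 79.2, 71.0 and 79.6 FPKM in Gsk3sKO (log2 difference 0.11, SE 0.12, adjusted p = 0.907). It had the highest log2 difference of the 10 genes, and Gsk3sKO 2 lay within the Ctrl range. Ppp2cb was at 48.2, 65.4 and 61.2 FPKM in Ctrl, against 58.8, 63.4 and 46.8 FPKM in Gsk3sKO (log2 difference -0.05, SE 0.17, adjusted p = 0.969). The lowest Ppp2cb libraries were Ctrl 1 and Gsk3sKO 3, 1 of each group, and Ppp2ca exceeded Ppp2cb in all 6 libraries by 1.04 to 1.70 times.

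The scaffold genes differed from each other far more. Ppp2r1a, at chr17:20945311-20965916 on the plus strand, was at 118, 127 and 139 FPKM in Ctrl, against 131, 126 and 93.5 FPKM in Gsk3sKO (log2 difference -0.15, SE 0.16, adjusted p = 0.901). Gsk3sKO 3 alone lay below the Ctrl range, and without it the log2 difference was 0.01. Ppp2r1b, at chr9:50845301-50894229 on the plus strand, was at 0.924, 1.41 and 1.64 FPKM in Ctrl, against 2.03, 0.874 and 1.27 FPKM in Gsk3sKO (log2 difference 0.02, SE 0.32, adjusted p = 0.994). Ppp2r1a therefore exceeded its relative by 64.7 to 144 times. The Ppp2r1b totals rested on 22.7 to 147 reads, and no transcript of this gene reached a mean of 1 FPKM. Transcripts not annotated as protein-coding held 1.57, 8.31 and 9.61% of the total in Ctrl and 68.5, 100 and 14.2% in Gsk3sKO. The difference of the total therefore does not describe its protein-coding part, which was too low to be tested. Ppp2r1b also overlaps Sik2, listed at 6.05 to 9.36 FPKM on the opposite strand. The library kit keeps strand, but whether strand was used in counting is not given in the sources used here.

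Beneath the Ppp2r1a total, 2 of its short transcripts were listed lower in Gsk3sKO, and neither passed after adjustment over all transcripts. Of the 13 transcripts of the 10 genes with a mean of at least 1 FPKM, 2 were called, both of Ppp2r1a and both lower in Gsk3sKO, where 5.56% of all 21584 transcripts tested were called and 3.75% were lower. One of these, Ppp2r1a-205, is listed at 0 in Gsk3sKO and passed the filter on mean level only through the Ctrl libraries, so the direction of its difference was fixed by the filter and its call is given as a description. These were also the only 2 of the 13 whose groups did not overlap, with the same limit for Ppp2r1a-205. Of all transcripts tested, the Gsk3sKO libraries were all lower for 6.96% and all higher for 4.28%. Both are short, and neither encodes the whole scaffold protein. Ppp2r1a-205 (ENSMUST00000147983) is a 430-base fragment annotated as coding throughout, and Ppp2r1a-207 (ENSMUST00000173658) is a 761-base transcript annotated as a target of nonsense-mediated decay. Ppp2r1a-205 joins exon 7 of the main transcript Ppp2r1a-201 (chr17:20958720-20958834) near its end, and the 115 bases of that exon are shown because only the last 7, in capitals, remain in Ppp2r1a-205.
Ppp2r1a-201 exon 7: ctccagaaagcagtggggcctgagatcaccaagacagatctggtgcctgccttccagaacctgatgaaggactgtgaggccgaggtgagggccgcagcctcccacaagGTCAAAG

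Ppp2r1a-205 was at 4.16, 6.60 and 1.42 FPKM in Ctrl, from about 80.7, 90.6 and 14.4 reads, and was listed at 0 in Gsk3sKO 1, 2 and 3. Since the Gsk3sKO values are all 0, its log2 difference depends on the pseudocount. It was -2.19 on log2(FPKM + 1) (SE 0.53, adjusted p = 0.643) and -5.13 with a pseudocount of 0.1. Ppp2r1a-207 was at 2.20, 5.23 and 9.15 FPKM in Ctrl, against 0.933, 2.02 and 1.48 FPKM in Gsk3sKO. Every Gsk3sKO library was below every Ctrl library, by a narrow margin between 2.02 and 2.20 FPKM, and the log2 difference was -1.27 (SE 0.50, adjusted p = 0.842). The call for Ppp2r1a-207 was lost without any one of Ctrl 2, Ctrl 3, Gsk3sKO 1, Gsk3sKO 2 or Gsk3sKO 3, with log2 differences between -1.42 and -0.88, and it held without Ctrl 1. Neither transcript held after adjustment over all transcripts.

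The main transcript Ppp2r1a-201 (ENSMUST00000007708) was at 112, 114 and 127 FPKM in Ctrl, against 130, 123 and 91.5 FPKM in Gsk3sKO, and these groups overlapped (log2 difference -0.05, SE 0.17, adjusted p = 0.975). As a share of the Ppp2r1a total it was 94.6, 89.9 and 91.6% in Ctrl and 99.0, 98.1 and 97.9% in Gsk3sKO. The means of 92.0% ± 2.40 and 98.3% ± 0.570 (SD, n = 3 each) did not overlap in their libraries, with p = 0.1 in the two-sided exact permutation test, the smallest this design allows. The rest of the total is mostly the 2 short transcripts above, so this share is not a separate result.

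The B55 genes encode regulatory subunits, of which Ppp2r2a (chr14:67014056-67072444, minus strand) is expressed widely and Ppp2r2c (chr5:36868513-36955078, plus strand) mainly in brain. Ppp2r2a was at 33.4, 35.4 and 35.1 FPKM in Ctrl, against 31.1, 29.8 and 33.7 FPKM in Gsk3sKO. The groups touched only at Gsk3sKO 3 and Ctrl 1, and the log2 difference was -0.13 (SE 0.13, adjusted p = 0.876). Ppp2r2c was at 135, 128 and 139 FPKM in Ctrl, against 143, 150 and 122 FPKM in Gsk3sKO (log2 difference 0.04, SE 0.13, adjusted p = 0.966). Its highest and its lowest library were both Gsk3sKO. Ppp2r2c exceeded Ppp2r2a by 3.62 to 5.03 times. The table lists 1 transcript for Ppp2r2a, where GENCODE M21 has 5, and 6.31% of the 50-base stretches of that transcript also occur in the predicted gene Gm19221, so some of its reads may be shared.

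Grk5, at chr19:60889749-61095968 on the plus strand, had the lowest level of the 4 receptor-proximal genes and moved least. It was at 5.32, 5.56 and 6.68 FPKM in Ctrl, against 5.79, 6.40 and 5.35 FPKM in Gsk3sKO, a log2 difference of 0.00 (SE 0.20, adjusted p = 0.999). All 3 Gsk3sKO values fell within the Ctrl range. Grk6, at chr13:55445072-55460927 on the plus strand, was at 19.6, 10.1 and 11.9 FPKM in Ctrl, against 13.8, 14.4 and 7.86 FPKM in Gsk3sKO, a log2 difference of -0.18 (SE 0.30, adjusted p = 0.932). Ctrl 1 was the highest Grk6 library, and without it the log2 difference was 0.08.

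The high Grk6 library also had another transcript. The 2 Grk6 transcripts listed differ in their last exon, the 16th in each: Grk6-201 ends with 90 coding bases at chr13:55459782-55459871, and Grk6-202 ends in an exon just upstream that adds 3 coding bases. The 90 bases are shown, in capitals throughout, because they separate the forms and encode the end of the kinase.
Grk6-201 exon 16, coding part: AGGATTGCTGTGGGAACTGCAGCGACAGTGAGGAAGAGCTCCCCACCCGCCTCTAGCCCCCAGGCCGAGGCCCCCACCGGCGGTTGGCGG

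Grk6-201 (ENSMUST00000001115) was at 2.90, 9.96 and 11.8 FPKM in Ctrl, against 12.8, 14.2 and 7.81 FPKM in Gsk3sKO. Grk6-202 (ENSMUST00000099482) was at 16.7, 0.133 and 0.115 FPKM in Ctrl, against 0.993, 0.186 and 0.0466 FPKM in Gsk3sKO. The form with the alternative end thus held 85.2% of the Grk6 total in Ctrl 1 and at most 7.21% in any other library. In Ctrl 1 about 1636 reads were placed on Grk6-202 and 392 on Grk6-201. Grk6-202 is 2169 bases long and Grk6-201 is 2994, so the same reads give a higher FPKM on Grk6-202. The high Grk6 total of Ctrl 1 and its transcript shares are therefore not separate results. How far the assignment of reads moved them was not tested. Neither transcript was called (Grk6-201, log2 difference 0.59, SE 0.50, and Grk6-202, log2 difference -1.06, SE 1.14). GENCODE M21 has 7 Grk6 transcripts, of which 2 are listed.

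Ratios between the genes were chosen after their values were seen. The catalytic sum (Ppp2ca and Ppp2cb, 118 to 138 FPKM) was close to the scaffold sum (Ppp2r1a and Ppp2r1b, 94.8 to 141 FPKM) in most libraries, with a ratio of 0.988, 1.04 and 0.973 in Ctrl and of 1.03, 1.06 and 1.33 in Gsk3sKO. Only Gsk3sKO 3 was far from 1, and this is the library with the lowest Ppp2r1a. The sum of Ppp2r2a and Ppp2r2c over the scaffold sum was 1.41, 1.27 and 1.24 in Ctrl and 1.3, 1.42 and 1.64 in Gsk3sKO. The ratio of Grk6 to Grk5 was 3.68, 1.81 and 1.78 in Ctrl and 2.38, 2.24 and 1.47 in Gsk3sKO. Groups overlapped for all 7 ratios, and adjusted p ran from 0.700 to 1 in two-sided exact permutation tests.

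**Figure D4:**
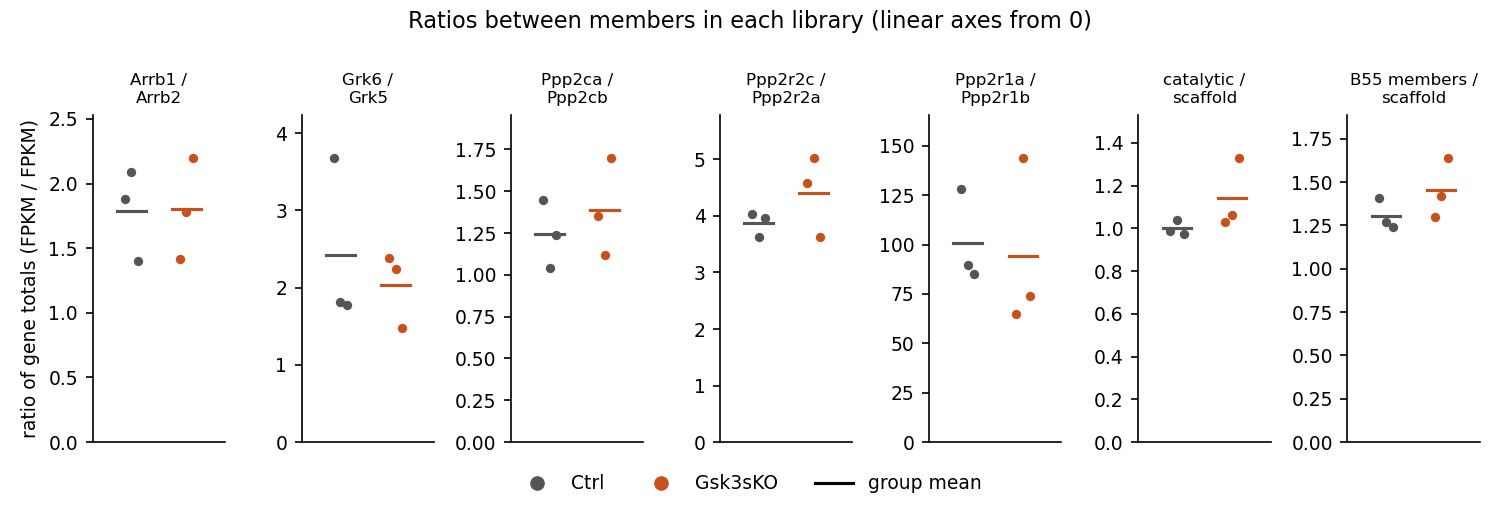
Ratios of gene totals in each library for the 7 pairs or sums (linear axes from 0, 1 panel per ratio), with 1 point per library and a bar at the mean of each group of 3. The groups overlap in every panel, and the catalytic to scaffold ratio is between 0.973 and 1.06 in 5 of 6 libraries and 1.33 in Gsk3sKO 3.

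Other genes of the same pathway give the setting of these values. Of 43 listed, 42 were found and 37 were tested, of which 2 were called higher in Gsk3sKO and 0 lower. Of all gene totals 6.56% were called, 1.36% higher and 5.20% lower. The direction of the 2 calls is thus the less frequent one among all gene totals, and with 2 genes nothing further is read from it. Their median log2 difference was -0.01. Both called genes concern PP2A, as do the 13 B subunit genes and 9 assembly, methylation and inhibitor genes among the 37 tested. Ppp2r5a, a B56 regulatory subunit, was at 24.1, 23.4 and 27.8 FPKM in Ctrl, against 33.9, 30.2 and 34.5 FPKM in Gsk3sKO (log2 difference 0.38, SE 0.14, adjusted p = 0.726). Igbp1, known as α4, binds and stabilises free PP2A catalytic subunits, and was at 30.0, 24.8 and 32.5 FPKM in Ctrl, against 36.4, 39.4 and 42.7 FPKM in Gsk3sKO (log2 difference 0.43, SE 0.15, adjusted p = 0.688). In both genes every Gsk3sKO library was above every Ctrl library, as for 3.71% of all gene totals tested. Both were named because they were called, so this is not a separate result. Both calls were lost without Ctrl 2 (log2 differences of 0.33 and 0.33) and without Gsk3sKO 3 (0.34 and 0.38), and that of Ppp2r5a also without Ctrl 1 (0.35) or Gsk3sKO 1 (0.36).

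Among the 13 other B subunit genes, 1 was called, and the most abundant were Ppp2r2b, the third B55 gene, at 51.8 to 72.1 FPKM, and the striatin gene Strn4 at 51.6 to 81.1 FPKM. With Ppp2r2d, the 4 B55 genes summed to 244 to 292 FPKM, of which Ppp2r2c gave the most, and the 5 B56 genes to 134 to 159 FPKM. Among 9 genes for PP2A assembly, methylation and inhibition, 1 was called. The inhibitor gene Anp32a (221 to 306 FPKM) and the methylesterase gene Ppme1 (100 to 142 FPKM) stood among the highest, and Anp32a exceeded each of the 6 PP2A subunit genes in every library. The related catalytic genes Ppp4c (7.25 to 13.3 FPKM) and Ppp6c (8.10 to 22.3 FPKM) were lower than Ppp2ca and Ppp2cb, and neither was called.

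Of the other receptor kinases, Adrbk1, which encodes GRK2, was at 23.9 to 46.5 FPKM and exceeded both Grk5 and Grk6 in every library, and Adrbk2, which encodes GRK3, was at 12.5 to 18.4 FPKM. Grk4 reached at most 0.740 FPKM and the rhodopsin kinase gene Grk1 was listed at 0 in all 6 libraries. Among arrestin relatives, the most abundant were Arrdc3 at 4.74 to 9.09 FPKM and Arrdc4 at 1.47 to 3.56 FPKM, and none of the 5 tested was called. Downstream, Akt1 was at 29.7 to 33.7 FPKM and Akt2 at 8.0 to 13.2 FPKM, and neither was called. Gsk3a, which encodes the GSK3 form not targeted by the guide, was at 39.8, 43.8 and 48.5 FPKM in Ctrl, against 50.1, 48.6 and 43.6 FPKM in Gsk3sKO (log2 difference 0.11, SE 0.14, adjusted p = 0.914).

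**Figure D5:**
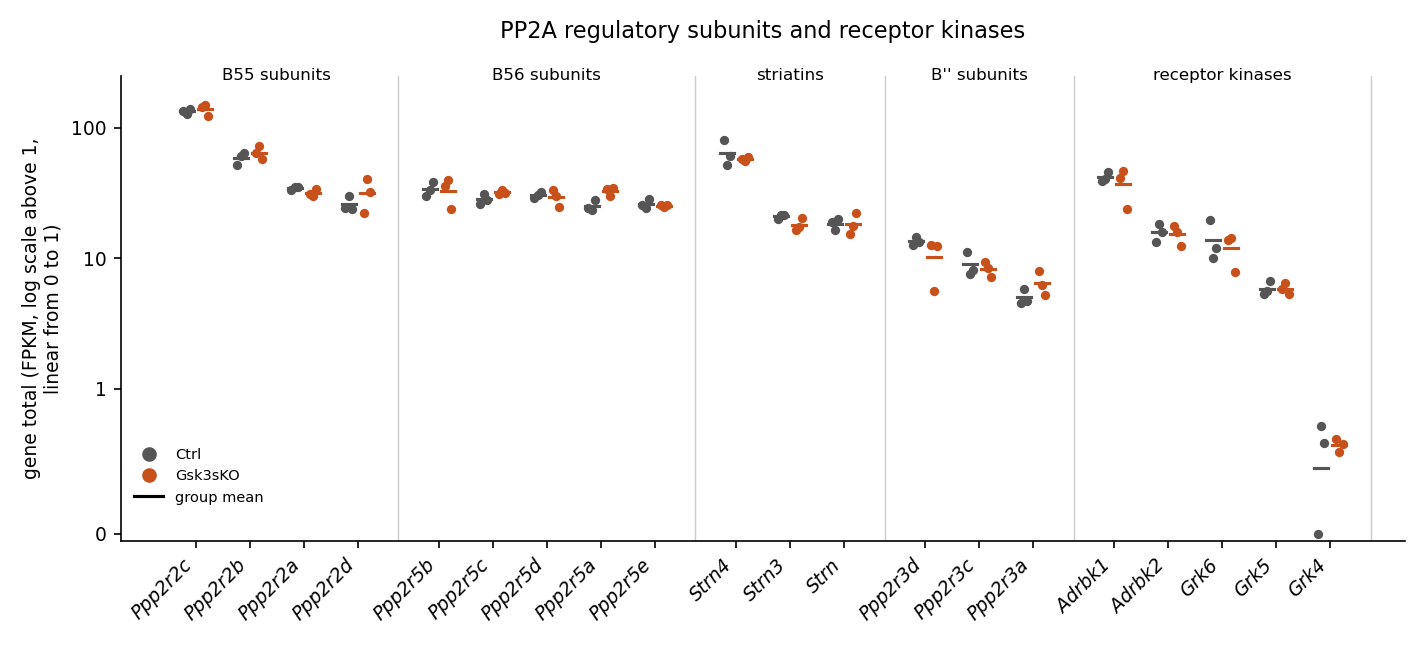
Gene totals (FPKM, log axis above 1 and linear from 0 to 1) of the B55, B56, striatin and B″ regulatory subunits of PP2A and of the receptor kinases, with 1 point per library and a bar at the mean of each group of 3. Ppp2r2c is the highest B subunit gene, Adrbk1 the highest kinase gene, and the groups of Ppp2r5a alone are apart.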

How the data were processed

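RNA bound to tagged ribosomes was prepared by the authors by RiboTag immunoprecipitation and made into libraries with a stranded total RNA kit. Per the submitters' processing notes, HISAT2 2.1.0, SAMtools 1.9, StringTie 1.3.4d and GRCm38 were used, with settings not given in the sources used here. The deposited values are FPKM per transcript, as the authors made them. Fold changes, p-values and q-values of the authors' own comparison are also in the table and were not used.

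Gene totals were sums of transcript FPKM. Gene totals and transcripts with a mean of at least 1 FPKM were tested on log2(FPKM + 1) with limma 3.58.1 in R 4.3.3, with moderated variances and a variance trend, over all features. Calls were made at an unadjusted p under 0.05, and Benjamini-Hochberg adjusted values are over all features tested. Fold changes on this scale understate those of low genes. The method was tested on simulated data. Ratios were compared on the log2 scale with two-sided exact permutation tests. Library depth came from the steps between low FPKM values. Of these values 11.7 to 25.0% were within 0.01 of a whole read, so it is approximate, and the count test was not run. Transcripts were placed with GENCODE M21, which held 114237 of those listed. Same-numbered libraries were not taken as pairs.

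The 10 genes and the pathway and marker lists were chosen with earlier results of these data known. Genes named besides the 10 are those called, the most abundant 2 of each group, and Drd2, Akt1, Akt2, Gsk3a and Gsk3b. A gene of the pathway list is not reported here. Named transcripts are the most abundant of each gene and those called. Arrb1-201, Arrb2-205, Arrb2-210 and Grk6-202 were added after their values were seen, as were the other genes named with summed or overlapping values.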

Additional observations from a re-analysis of the deposited data

How the results depend on the processing

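None of the gene totals of the 10 genes that were tested was called under any alternative run: a pseudocount of 0.1, no filter, a mean of at least 5 FPKM, scaling by the median ratio, unmoderated variances, no variance trend, a replicate block, protein-coding transcripts only (chosen after seeing the data) or leaving out any library. Ppp2r1b was not tested at a mean of at least 5 FPKM or with protein-coding transcripts only, which left 9 genes. With the latter, the log2 difference of Arrb2 was -0.49 in place of -0.13. Of 320 log2 differences under alternatives, 283 kept direction and call. Called transcripts of the 10 genes numbered 0 at a mean of at least 5 FPKM, where fewer are tested, 1 with unmoderated variances, and 1 to 2 with a library left out. Called pathway genes numbered 1 without the variance trend and 0 to 3 with a library left out. With scaling by the median ratio, the log2 difference became 0.02 for Ppp2cb, its transcript ENSMUST00000009774 and Ppp2r1a transcript ENSMUST00000007708. The median log2 difference of all gene totals also moved, from -0.06 in the main run to 0.00 with this scaling, so the move was not particular to these features. What lies behind the shift of the median was not tested. Leaving out 1 library gave ranges through 0 of -0.18 to 0.08 for Ppp2cb and its transcript, -0.24 to 0.01 for Ppp2r1a, -0.15 to 0.10 for ENSMUST00000007708, -0.16 to 0.19 for Ppp2r1b, -0.02 to 0.13 for Ppp2r2c and -0.02 to 0.12 for its transcript ENSMUST00000031003, -0.06 to 0.09 for Grk5 and its transcript ENSMUST00000003313, -0.37 to 0.08 for Grk6, and -0.37 to 0.04 for Arrb1 transcript ENSMUST00000098266. Same-numbered libraries did not deviate together (correlations of -0.03, -0.01 and -0.08), and with the number as a replicate block 0 gene totals, 2 transcripts and 2 pathway genes were called, as without it. Low reads limit Ppp2r1b, Arrb2 and the short Ppp2r1a transcripts most.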
